A study of Arabidopsis thaliana with 15 samples.

Results

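The genes described here are 8 neighbours in 2 tandem groups of the Arabidopsis thaliana genome: the jacalin-related lectin genes JAL22 and JAL23 on chromosome 2, and JAL30, JAL31, JAL33, JAL34, JAL35 and the nitrile-specifier gene NSP1 on chromosome 3. They were picked by locus from the 33201 genes in the authors' comparison of syd-5 with wild-type RNA, and JAL23 was known beforehand to be among the genes that differed most in it. The WT group was the accession Col-0 (3 RNA libraries), and the mutant group carried the allele syd-5 in Col-0 (3 RNA libraries). This allele affects SPLAYED (SYD), which encodes a chromatin remodelling ATPase of the SWI/SNF type. All were whole seedlings aged 14 days, grown on plates in long days and frozen before RNA extraction, and syd-5 was the 1 mutant line. The other 9 of the 15 libraries were chromatin immunoprecipitations and inputs and were not analysed here.

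Jacalin-related lectins are carbohydrate-binding proteins built from jacalin domains, alone or repeated. Several of them bind PYK10, a beta-glucosidase that Arabidopsis stores in ER bodies, spindle-shaped compartments of the endoplasmic reticulum. When tissue is damaged, the enzyme and the lectins meet and form large complexes, and lectins of this group have opposing effects on complex size. NSP1 carries a jacalin domain joined to kelch repeats and directs the breakdown of glucosinolates, the sulfur-containing defence compounds of the mustard family, towards simple nitriles.

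The table gives 1 value per gene and genotype, read here as FPKM, which is scaled for transcript length so that levels of different genes can be set side by side. Over all listed genes the values added up to 865406 FPKM (WT) and 948154 FPKM (syd-5). The table gives no value per library, spread or depth beside any single number, so whether 2 genes with levels close to each other differ cannot be said. The words called, rose and fell are kept for genes with a q-value of at most 0.05, as the authors' deposited table lists it. SYD itself stood at 13.1 FPKM in WT against 2.53 FPKM in syd-5 (log2 -2.37), with a listed span that another gene shares, and its homolog BRM stood at 21.2 and 19.6 FPKM (log2 -0.11, with q = 0.595 in the authors' deposited table).

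All 8 members had been tested and all 8 were called, 6 lower and 2 higher in syd-5. Of all tested genes 32.1% were called, 18.0% as lower and 14.1% as higher. Because the members were chosen from this same contrast, their calls describe them and test nothing. The median log2 difference of the members was -0.77, and that of all tested genes with a finite ratio was -0.02. A call with a difference of at least 2-fold was reached by 3 members, JAL23, JAL22 and JAL33, all lower. The share of all tested genes was 11.6% in either direction and 8.27% for lower values. None of the members had a listed span shared with another gene. The smallest q in the authors' deposited table was 0.000351. It is listed for 2831 genes, 6 of the members among them, so it does not rank these genes by strength of evidence.

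JAL23 (AT2G39330, TAIR10 chromosome 2, 16419596 to 16421852) was the member that came close to silence. It stood at 27.1 FPKM in WT, above 70.2% of tested genes, and at 0.178 FPKM in syd-5, above 1.10% of them. The difference was 153-fold (log2 -7.26, with q = 0.000351 in the authors' deposited table). Of the tested genes with a finite ratio, 3 had a lower log2 value and 0 of those 3 were called. A finite ratio was had by 19796 of the 19868 tested genes, and genes at 0 in a genotype were left out of this ranking. The 153-fold figure rests on a mutant level near 0. With 1 FPKM added to both values the log2 difference was -4.58.

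JAL22 (AT2G39310, chromosome 2, 16414073 to 16416815), the other lectin gene of that pair, was the more abundant of them in both genotypes. It stood at 105 FPKM in WT against 44.5 FPKM in syd-5, a 2.36-fold fall (log2 -1.24, with q = 0.000351 in the authors' deposited table). The level of JAL22 was thus 3.87 times that of JAL23 in WT and 251 times in syd-5. The 2 genes are 2780 bases apart with 1 listed gene, AT2G39320, between them, which was not tested (0.235 FPKM in WT, and in the mutant listed at 0). SYD lies on the same chromosome, 4.35 Mb from JAL23. Within 5 Mb of SYD 34.3% of 1933 tested genes were called.

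**Figure D1:**
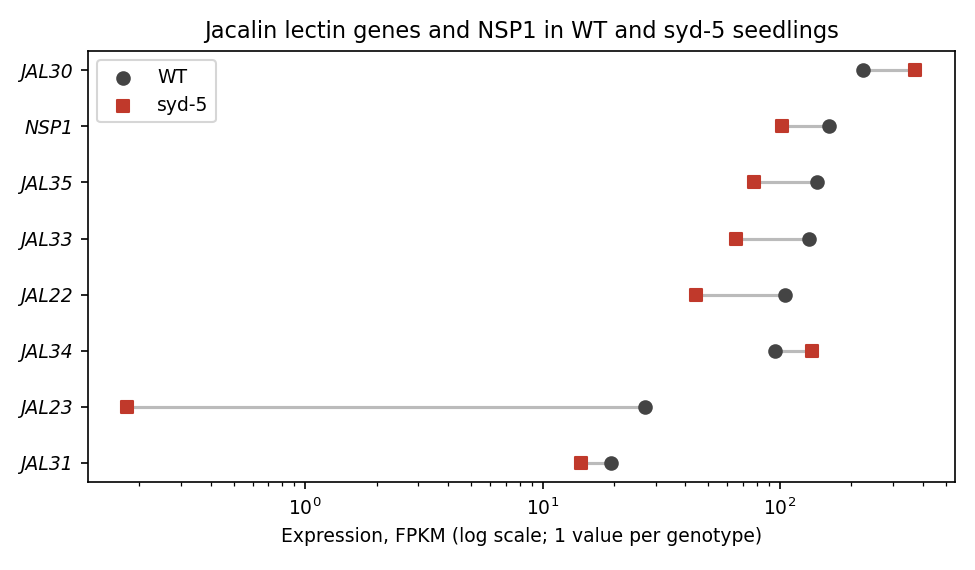
Expression of the 8 members in WT (grey circles) and syd-5 (red squares), in FPKM on a log axis, with 1 value per genotype and no error bars because the table gives none. JAL30 and JAL34 lie to the right in syd-5, the other 6 genes lie to the left, and JAL23 drops from 27.1 to 0.178 FPKM.

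Of the 6 members in the chromosome 3 cluster, 2 rose and 4 fell. JAL30 (AT3G16420, chromosome 3, 5579386 to 5580953), also named PYK10-binding protein 1, was the most abundant member in both genotypes. It rose 1.66-fold, to 372 FPKM in syd-5 from 224 FPKM (log2 0.73, with q = 0.000351 in the authors' deposited table). JAL31 (AT3G16430, 5581663 to 5583187), which begins 709 bases further on, was the least abundant member in WT. It fell to 14.5 FPKM from 19.4 FPKM (log2 -0.41, with q = 0.0370 in the authors' deposited table), the smallest difference of the 8. Its call was lost when the adjustment took in the untested genes (q = 0.0618, recomputed from the p-values in the authors' deposited table). JAL30 was 11.6 times as abundant as JAL31 in WT and 25.6 times in syd-5.

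The lectin genes JAL33, JAL34 and JAL35 stand in a row, and the middle one moved against both neighbours. JAL33 (AT3G16450, 5588394 to 5590055) fell 2.03-fold, to 65.2 FPKM from 133 FPKM (log2 -1.02). JAL34 (AT3G16460, 5592582 to 5595717) rose 1.43-fold, to 137 FPKM from 95.6 FPKM (log2 0.52, with q = 0.00344 in the authors' deposited table). JAL35 (AT3G16470, 5595929 to 5599224), also named JASMONATE RESPONSIVE 1 for its induction by the wound hormone jasmonate, fell 1.85-fold, to 77.7 FPKM from 144 FPKM (log2 -0.89). The ratio of JAL34 to JAL33 was 0.721 in WT and 2.10 in syd-5. JAL34 and JAL35 are 211 bases apart in the table, and their models overlap in the RefSeq gene table (assembly TAIR10.1), so reads near that border could be counted for either gene.

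NSP1 (AT3G16400, 5566086 to 5568545), the specifier gene at the start of the cluster, fell 1.58-fold, to 102 FPKM from 161 FPKM (log2 -0.66, with q = 0.000351 in the authors' deposited table). In the order of levels, WT ran from JAL30 through NSP1, JAL35, JAL33, JAL22, JAL34 and JAL23 to JAL31. In syd-5 JAL34 moved to the second place from the sixth, and JAL23 took the last place. The member with the highest level exceeded the lowest 11.6-fold in WT and 2096-fold in syd-5, or 25.6-fold in syd-5 with JAL23 left out.

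The summed level of the 8 genes was 908 FPKM in WT against 813 FPKM in syd-5. Without JAL30 it was 684 FPKM in WT against 441 FPKM in syd-5. JAL30 alone made up 24.6% of the members' sum in WT and 45.8% in syd-5, and JAL34 made up 10.5% and 16.8%. JAL22, JAL33, JAL35 and NSP1 each held a smaller share in syd-5 than in WT, for instance 14.6% and 8.02% for JAL33. These genes are related copies, and the sources used here do not say how reads that match several of them were assigned.

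**Figure D2:**
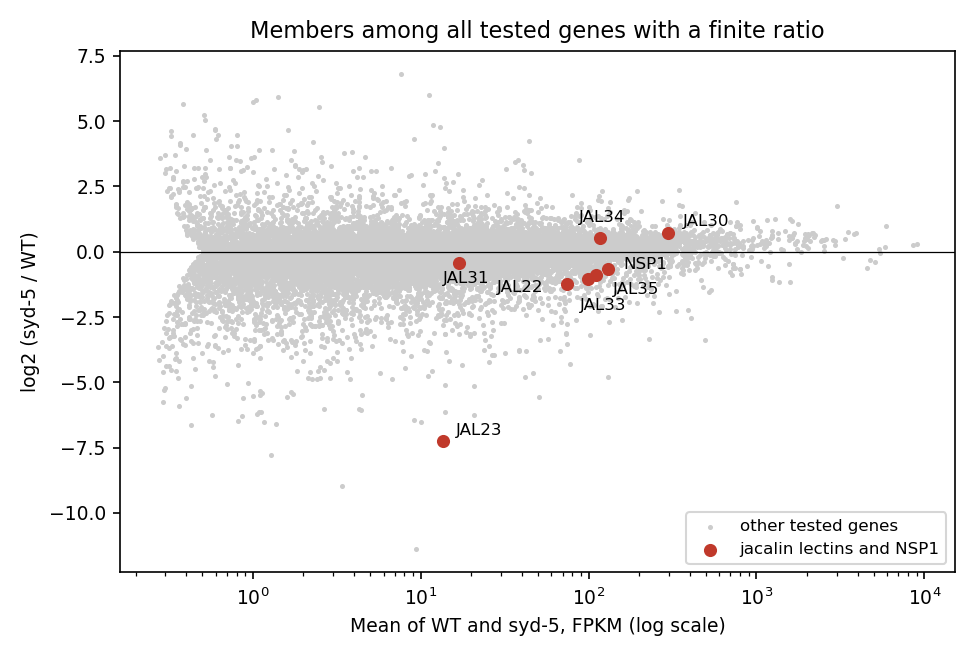
Log2 of syd-5 over WT against the mean FPKM of both genotypes (log axis) for the 19796 tested genes with a finite ratio, with the 8 members in red. JAL23 lies apart from the other members at log2 -7.26, and the other 7 lie between -1.24 and 0.73.

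Direct neighbours within the cluster went different ways. Of the 3 pairs of members with no listed gene between them (JAL30 and JAL31, JAL33 and JAL34, JAL34 and JAL35), 3 had opposite directions. Genome-wide, 1367 pairs of adjacent, non-overlapping genes were both called, and 36.1% of them had opposite directions. The pairs within the cluster share genes and were seen before they were counted, so this is a description only.

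The chromosome 2 pair stood among genes with smaller differences. Of the 10 other tested genes within 5 listed genes on either side, 0 were called by the authors' test, against 32.1% of all tested genes. An unadjusted p below 0.05 was reached by 1 of the 10 (AT2G39360). The closest tested flanking genes were AT2G39300, with 1.65 FPKM in WT against 1.21 FPKM in syd-5, and SAC3A, with 19.6 and 16.9 FPKM. SAC3A and some of the other neighbours have listed spans shared with another gene.

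Around and inside the chromosome 3 cluster, 12 other genes were tested, of which 1 rose, 4 fell and 7 were not called, a called share not far from the 32.1% of all tested genes. AT3G16370 rose to 198 FPKM from 148 FPKM (log2 0.42). AHP4, which encodes a histidine phosphotransfer protein, fell to 12.1 FPKM from 25.2 FPKM (log2 -1.06). On the far side IQD26, an IQ-domain gene, fell to 0.677 FPKM from 1.73 FPKM (log2 -1.35), the gene listed as PAP1 (AT3G16500) fell to 26.3 FPKM from 35.0 FPKM (log2 -0.41), and AT3G16510 fell to 8.61 FPKM from 17.9 FPKM (log2 -1.05). Related genes inside the cluster or just before it were at low levels and not called. Inside it, NSP4 stood at 3.58 FPKM in WT against 3.76 FPKM in syd-5, and the myrosinase-binding protein-like gene MLP-300B at 1.09 and 0.542 FPKM (with q = 0.0587 in the authors' deposited table). NSP3, the gene before NSP1, stood at 0.780 FPKM in WT against 1.13 FPKM in syd-5.

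**Figure D3:**
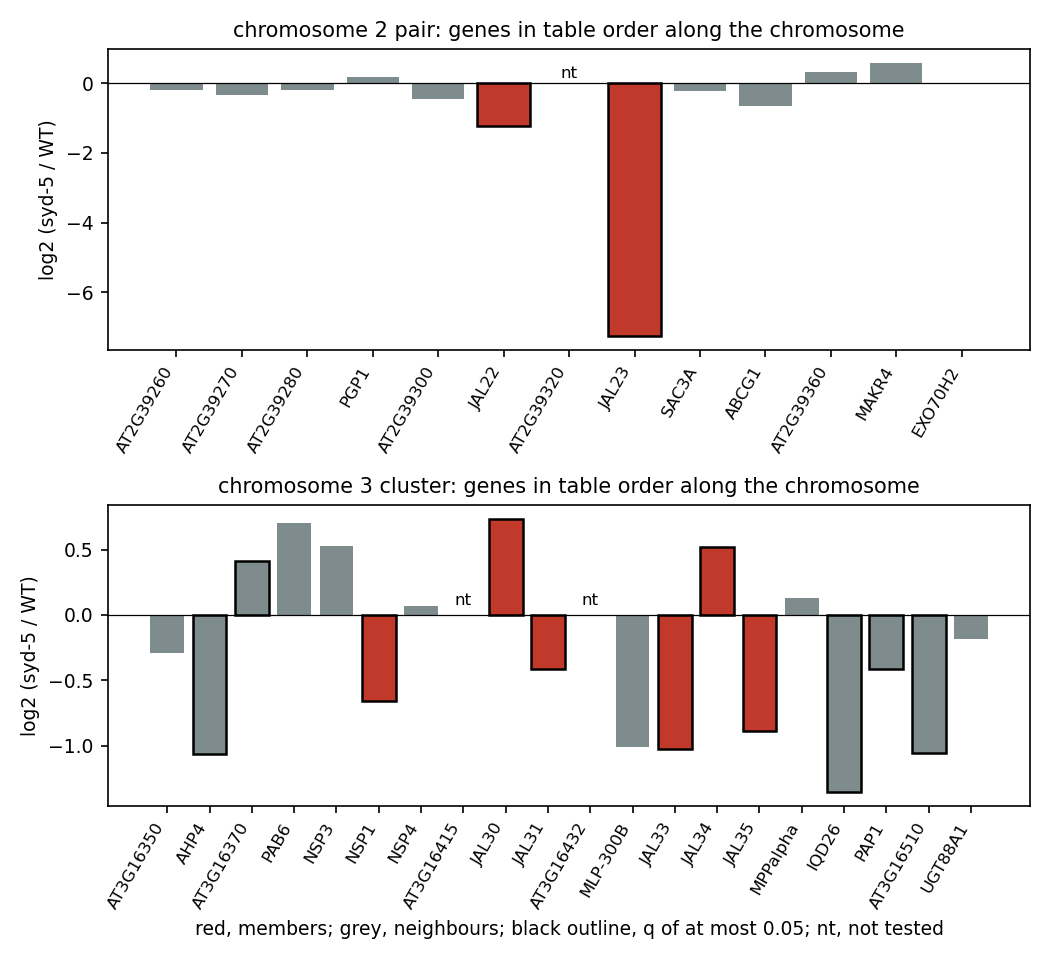
Log2 of syd-5 over WT for the chromosome 2 pair (top) and the chromosome 3 cluster (bottom) with 5 listed genes on either side, in chromosomal order and not to scale in distance, each panel with its own y axis. Red bars are members, grey bars are neighbours, a black outline marks q of at most 0.05, and nt marks genes that were not tested. In the top panel JAL23 has the deepest bar, and JAL22 and JAL23 are outlined while no grey bar is. In the bottom panel JAL34 points up between the downward bars of JAL33 and JAL35, and JAL30 points up before the downward bar of JAL31.

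Related genes outside the 8 were collected by their RefSeq names after the table had been seen. By a name with jacalin or JAL alone, the virus resistance gene JAX1 was the 1 further match. The RefSeq table holds no gene descriptions, so this search could not find family members under other names, and JAX1 does not stand for the family. JAX1 was not called (1.45 FPKM in WT against 1.69 FPKM in syd-5). Adding RTM1, which restricts the movement of a potyvirus, the myrosinase-binding proteins and the other nitrile specifiers gave 9 genes. Of the 8 tested, 3 fell, 0 rose and 5 were not called, and 0 were higher at an unadjusted p below 0.05. The called share is close to the 32.1% of all tested genes. All 3 calls were falls, and 18.0% of all tested genes were called as lower. At an unadjusted p below 0.05, 4 were lower. With 8 tested genes these shares say little. MBP2, a myrosinase-binding protein gene, fell 7.94-fold to 1.83 FPKM from 14.5 FPKM (log2 -2.99). Its neighbour MBP1 fell to 5.11 FPKM from 11.9 FPKM (log2 -1.22). NSP5, a specifier gene on another chromosome, fell to 98.0 FPKM from 217 FPKM (log2 -1.15), so that its level was close to that of NSP1 in syd-5.

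The genes of ER bodies and the PYK10 complex went both ways. Of 13 tested genes, 3 rose, 5 fell and 5 were not called, with a median log2 difference of -0.17. Among all tested genes, 14.1% were called as higher and 18.0% as lower. NAI1, the transcription factor gene needed for ER bodies to form, rose 2.44-fold to 21.5 FPKM from 8.80 FPKM (log2 1.29). NAI2, which encodes an ER body component, rose to 58.1 FPKM from 38.3 FPKM (log2 0.60). GLL23 (AT1G54010), a GDSL lipase-like gene of the PYK10 complex, rose to 61.6 FPKM from 21.5 FPKM (log2 1.52).

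PYK10 itself was not called, at 598 FPKM in WT against 541 FPKM in syd-5 (with q = 0.575 in the authors' deposited table), and its listed span is shared with another gene. The level of JAL30 was 0.374 times that of PYK10 in WT and 0.688 times in syd-5. The beta-glucosidase genes BGLU18, which is active in leaf ER bodies, and BGLU22 fell, to 60.9 FPKM from 120 FPKM (log2 -0.97) and to 7.16 FPKM from 15.8 FPKM (log2 -1.15). TSA1, a relative of NAI2, fell to 7.15 FPKM from 18.3 FPKM (log2 -1.35). MVP1, another GDSL lipase-like gene, fell to 27.4 FPKM from 37.3 FPKM (log2 -0.44), and AT1G54020 fell to 0.126 FPKM from 1.88 FPKM (log2 -3.90). BGLU21, BGLU22 and PYK10 are close copies, and their single values are less certain.

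Genes of glucosinolate breakdown, the pathway NSP1 acts in, leaned towards lower levels in syd-5. Of 11 tested genes other than NSP1, 8 fell, 0 rose and 3 were not called, against 18.0% of all tested genes called as lower. At an unadjusted p below 0.05, 0 were higher, and the median log2 difference was -1.04. The myrosinase genes TGG1 and TGG2, which start the breakdown, fell to 846 FPKM from 1875 FPKM (log2 -1.15) and to 138 FPKM from 641 FPKM (log2 -2.22). The epithiospecifier gene ESP fell to 5.39 FPKM from 27.4 FPKM (log2 -2.35), and ESM1, whose product favours isothiocyanates over nitriles, fell to 172 FPKM from 362 FPKM (log2 -1.07). The nitrilase genes NIT1, NIT2 and NIT3, whose products hydrolyse nitriles, fell by log2 differences of -0.68, -1.04 and -1.04. NSP5, named above, was the eighth, and PEN2, an atypical myrosinase gene, was not called (174 and 140 FPKM, and q = 0.0887 in the authors' deposited table).

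Jasmonate genes were looked at because JAL35 was named for this hormone. Of 18 tested genes, 2 rose, 11 fell and 5 were not called, with a median log2 difference of -0.46. The shares of all tested genes were 14.1% called as higher and 18.0% as lower. The response genes VSP1, VSP2 and TAT3 fell by log2 differences of -4.30, -3.33 and -2.82. MYC2, a main activator of the response, fell to 46.3 FPKM from 97.5 FPKM, and MYC3 and MYC4 fell by log2 differences of -0.41 and -0.38. CORI3, LOX3, AOS, OPR3 and COI1 were not called, CORI3 with 75.3 FPKM in WT against 71.7 FPKM in syd-5 (log2 -0.07). Among genes of jasmonate synthesis, AOC3, AOC4, LOX4 and LOX2 fell (log2 -1.37, -1.12, -0.70 and -0.50). AOC1 and AOC2 rose to 119 FPKM from 63.6 FPKM and to 509 FPKM from 252 FPKM. JAR1, which joins jasmonate to isoleucine, fell to 17.0 FPKM from 31.0 FPKM. The AOC genes and the VSP genes are close copies, and their values are less certain.

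**Figure D4:**
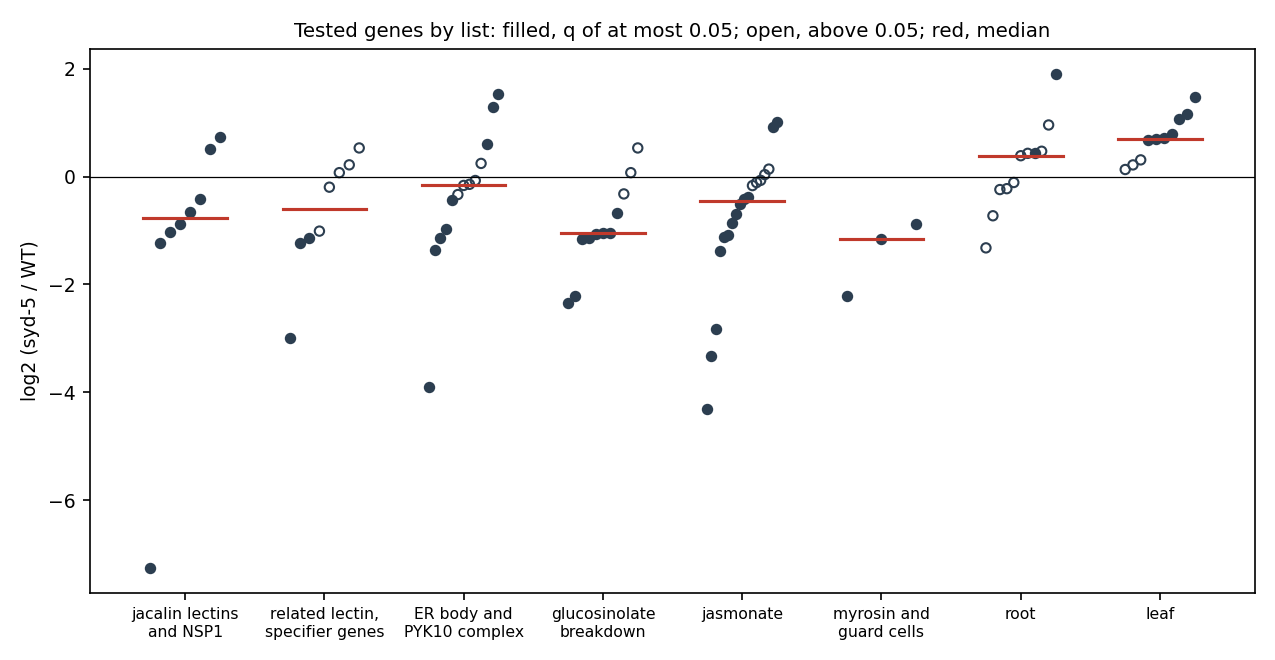
Log2 of syd-5 over WT for every tested gene of each list, with the list's median as a red line, filled points for q of at most 0.05 and open points for q above 0.05. The called genes of glucosinolate breakdown all lie below 0 and the called leaf genes all lie above it, while the jacalin lectins and the ER body genes lie on both sides.

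Whole seedlings mix organs, and in bulk RNA fewer cells of a type and less RNA per cell cannot be told apart. Of 11 tested root markers, out of 20, 2 rose, 0 fell, also at an unadjusted p below 0.05, and 9 were not called. Among all tested genes, 14.1% were called as higher, a share close to that of these markers, and 18.0% as lower. CASP2, a gene of the Casparian strip, rose to 3.53 FPKM from 0.946 FPKM, and SHR, a regulator of root tissue patterning, rose to 8.79 FPKM from 6.49 FPKM. Their summed level over all 20 was 33.4 FPKM in WT against 39.2 FPKM in syd-5. Of 10 leaf photosynthesis genes 7 rose and 0 fell, also at an unadjusted p below 0.05, against 14.1% of all tested genes called as higher. The summed levels of the leaf genes were 20070 FPKM in WT and 29437 FPKM in the mutant. The antenna genes LHCB3, LHCA3, LHCA1 and LHCB4.1 rose by log2 differences of 1.48, 1.16, 1.06 and 0.71. The photosystem I subunit genes PSAD-2, PSAE-1 and PSAD-1 rose by 0.80, 0.70 and 0.68. RBCS1A, RCA and GAPA were not called (log2 0.31, 0.13 and 0.22). RBCS1A, the most abundant leaf gene listed, stood at 8061 FPKM in WT against 9983 FPKM in syd-5 and thus weighs heavily in the sums. The 3 genes used as markers of myrosin cells and guard cells all fell. These are TGG1, TGG2 and FAMA, the transcription factor gene that specifies both cell types (listed as FMA, to 19.3 FPKM from 35.6 FPKM). They summed to 2552 FPKM in WT against 1003 FPKM in syd-5. TGG1 and TGG2 hold most of these sums and were already counted above among the falling genes of glucosinolate breakdown, so this list is not independent of that one. No marker of the 3 lists was at 0 in either genotype, and the part of organ or cell proportions in the members' differences was not tested.

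The genes whose pair of levels was nearest to that of JAL23, by Euclidean distance over the log2 values of the 2 genotypes, were DIP2 (19.7 FPKM in WT against 0.213 FPKM in syd-5, distance 0.528), AT5G33370 (18.0 and 0.208 FPKM, distance 0.631) and AT5G52760 (27.7 and 0.388 FPKM, distance 1.13). With 2 genotypes this likeness says no more than that the levels were similar. DIP2 and AT5G52760 were called (with q = 0.0114 and 0.00322 in the authors' deposited table). AT5G33370 was not called (with q = 0.135 in the authors' deposited table) despite a log2 difference of -6.44.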

How the data were processed

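RNA values came from 1 table of the authors. Per the submitters' processing notes, TopHat2 (version 2.0.4), Bowtie2, bedtools and the build TAIR10 were used, in roles the notes do not state. The software behind the table itself is not given in the sources used. Its expression values, as deposited by the authors, were read as FPKM from their layout, since the file header names no unit. Each p-value and each q-value was deposited by the authors. Recomputing q by Benjamini-Hochberg from p over 19868 tested genes gave the deposited q within 5.22e-07. The test statistic, a score of the authors, was not used. No depth per library is known, and whether libraries of a group were grown separately is not stated, so any spread behind the p-values may be technical.

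Log2 differences are syd-5 over WT without a pseudocount, computed with Python 3.11.15 and pandas 2.3.3. Where values per library had been foreseen, the authors' q was used instead. Names came from RefSeq (TAIR10.1, 32208 of 33201 IDs matched). Starts are counted from 1. The Benjamini-Hochberg function was tested on simulated data.

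Members and lists were chosen with earlier results of these data known. Named are all members, called neighbours within 5 listed genes, called genes of each list (at most 8, by q and then by size), NAI1, NAI2, PYK10, SYD, BRM and the 3 genes nearest to JAL23. Other genes (JAX1, RTM1, PEN2, NSP3, NSP4, MLP-300B, AT2G39300, AT2G39320, AT2G39360, SAC3A, BGLU21, LOX2, LOX4, MYC3, MYC4, JAR1, CORI3, LOX3, AOS, OPR3, COI1, RBCS1A, RCA, GAPA) were named after their values were seen.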

Additional observations from a re-analysis of the deposited data

How the results depend on the processing

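A pseudocount of 1 FPKM or a minimum mean of 1 FPKM cannot change the direction of a member. Scaling to equal FPKM sums shifts all genes by log2 -0.13 and centring on the median of tested genes by 0.02, less than the smallest member difference (JAL31, log2 -0.41), so the kept directions show nothing about stability. The members' median of -0.77 became -0.90 with equal sums and -0.75 after centring. Adding a 2-fold limit left 3 of the 8 called members, 5 of 8 called ER body genes and 7 of 8 called genes of glucosinolate breakdown. It left 7 of 13 called jasmonate genes, 1 of 2 root markers, 3 of 7 leaf genes and 3 of 3 related lectin and specifier genes. Among all tested genes, 11.6% were called with this limit and 32.1% without it. A limit of 0.01 on the authors' q kept 7 members, all but JAL31, 7 ER body genes, 10 jasmonate genes and 1 root marker. Adjusting over every listed gene left 7 members, again without JAL31, and 12 jasmonate genes. Leaving out shared spans changed the count of leaf genes to 6 and no other. No paired analysis was possible because the table gives 1 value per genotype and none per library. Leaving out single libraries was not run for the same reason. The proteins and promoters of the members were not analysed here. The depth is unknown, so the precision of the near-0 level of JAL23 in syd-5 cannot be given.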
